A study of Homo sapiens with 21 samples.

Results

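This comparison set senescent fibroblasts depleted of CDK6 directly against senescent fibroblasts depleted of CDK4. It used the 3 CDK6 knockdown libraries and the 3 CDK4 knockdown libraries of a series of 21, chosen by the target named in their labels. Of 16383 genes in the deposited table, 11167 had a normalised count of 10 or more in at least 3 of these 6 libraries and were tested. The cells were IMR90, an established line of normal human lung fibroblasts. Both groups had been made senescent by irradiation; transfection with siRNA to one kinase followed on day 4 and again on day 7, at 5 nM each time, and RNA was collected on day 10. Libraries came from poly(A) RNA. The non-targeting controls NT3 and NT4, with 3 libraries each, and a group in which both kinases were targeted (dual knockdown, 3 libraries) were irradiated and transfected in the same way, and 3 libraries came from proliferating cells. Because the labels identify each siRNA by its target alone, without a sequence, off-target activity of either reagent cannot be told apart from loss of the kinase. They do not say whether the libraries of a group came from separate cultures. P-values therefore measure only the spread between libraries of a group, which may be technical. That spread was estimated over all 21 libraries of the series. These include 3 of a CCND1 knockdown, irradiated and transfected in the same way.

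CDK4 and CDK6 are closely related kinases that are activated by D-type cyclins. Their best known substrate is the retinoblastoma protein, whose phosphorylation releases E2F factors and lets a cell enter S phase, while the INK4 inhibitors p16 and p15 hold both kinases inactive. Senescent cells have left the cell cycle for good, keep high D cyclin and inhibitor levels, and secrete cytokines, growth factors and proteases, a programme driven largely by NF-kB. CDK6 has also been described as a cofactor of transcription factors, including NF-kB, in other cells.

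Sequencing depth was similar across the 6 libraries, from 15433553 to 17592641 reads assigned to genes of the table. Fibroblast genes were high throughout, with COL1A1 the gene with the most reads in every library and VIM, an intermediate filament gene of mesenchymal cells, at 58689 to 67672. Of the 10 markers tested 4 were higher and 1 lower after CDK6 knockdown, FAP (-0.16, adjusted p = 0.0421). These are 40% and 10%, against 18.2% and 17.8% of all tested genes. The FAP call was lost without CDK4 knockdown library 1 or 2 or CDK6 knockdown library 1 or 3 (adjusted p 0.0577 to 0.224) and with the 6 libraries alone (adjusted p = 0.0528) or the 18 irradiated libraries (adjusted p = 0.0602). The leukocyte genes PTPRC, CD3E, AIF1, LYZ and CD163 lay between 0 and 4.91 in each of the 6 libraries. Likewise the endothelial gene CDH5 did not exceed 1.01, and the epithelial genes KRT5 and SFTPC were at 0. Summed leukocyte markers ranged from 1498 to 1606 in CDK4 knockdown and from 1058 to 1129 in CDK6 knockdown, nearly all of it CD68, a lysosomal protein gene that fibroblasts also express. Of the endothelial markers, TEK made up nearly all of a sum of 2229 to 2519 in CDK4 knockdown and 4099 to 4517 in CDK6 knockdown. Epithelial markers moved in both directions, with KRT19 called higher after CDK6 knockdown (0.80, adjusted p = 1.37e-05) and CLDN4 called lower (-1.74, adjusted p = 9.08e-05; 75.1, 42.2 and 64.4 in CDK4 knockdown and 23.95, 23.4 and 8.39 in CDK6 knockdown). They summed to 807 to 954 and 955 to 1079.9. Whether these differences had a part in the results was not tested.

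Relative to CDK4 knockdown, CDK6 knockdown had most tested genes of the cytokine, NF-kB component and feedback, interferon-stimulated, DNA replication and mitosis lists lower and most contractile genes higher, in the counts given for each list below. By limma on log2(normalised count + 1), 4021 genes passed an adjusted p of 0.05, which is 36.0% of those tested: 2030 were higher in CDK6 knockdown (18.2%) and 1991 were lower (17.8%). Most differences were small, with a median absolute log2 difference of 0.20 over all tested genes. Called and past 1 on the log2 scale were 520 genes (4.66%), and the split was uneven, with 177 genes higher (1.59%) and 343 lower (3.07%). For 5898 genes (52.8%) the 3 libraries of one group all lay above the 3 of the other. The first principal component of the 6 libraries separated the 2 knockdowns and carried 67.1% of the variance. The second carried 9.61% and set the third CDK6 knockdown library, at -17.98, apart from the other CDK6 knockdown libraries at 9.48 and 7.37.

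**Figure D1:**
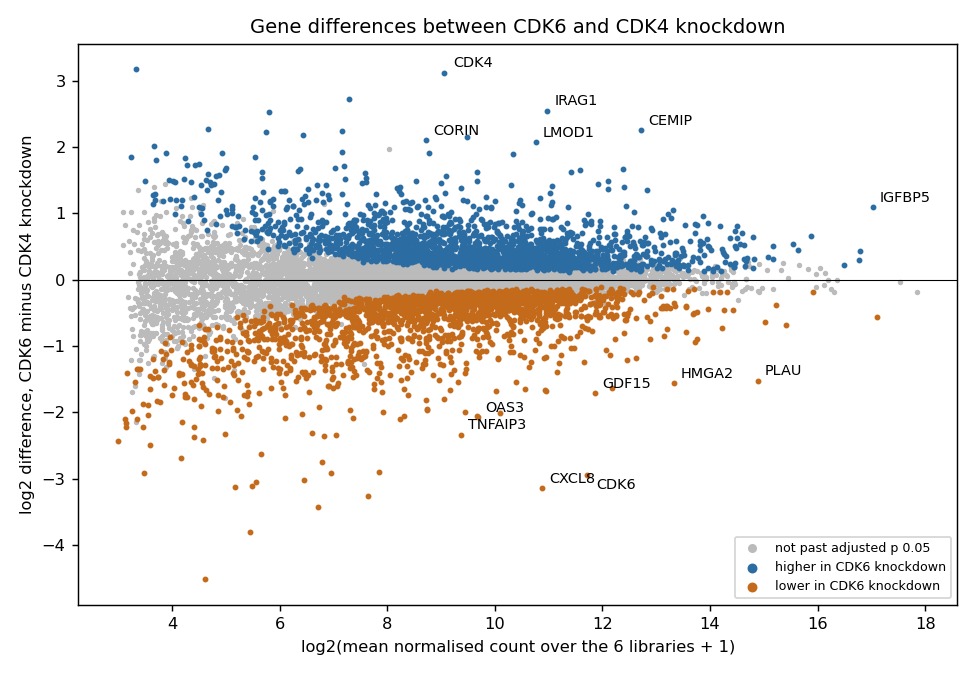
Log2 difference between CDK6 and CDK4 knockdown (vertical axis) against log2 of the mean normalised count over the 6 libraries plus 1 (horizontal axis), with 1 point per tested gene, coloured where limma's adjusted p was under 0.05. CDK4 at 3.12 and IRAG1 at 2.55 lie far above 0, and CXCL8 at -3.15 and CDK6 at -2.94 far below it.

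Each siRNA lowered its own target. CDK4 had normalised counts of 105.6, 109.9 and 108.9 in CDK4 knockdown and 889, 1015 and 946 in CDK6 knockdown. CDK6 had 6397, 5163 and 6324 in CDK4 knockdown and 759.7, 834 and 727 in CDK6 knockdown. The groups did not overlap for either gene, and the log2 differences were 3.12 (SE 0.069, adjusted p = 2.31e-18) for CDK4 and -2.94 (SE 0.093, adjusted p = 1.74e-15) for CDK6. An exact two-sided permutation test over the 20 splits of 3 against 3 libraries gave p = 0.1 for each, the smallest it can give. Against the mean of the NT3 and NT4 libraries, 8.67% of CDK4 remained after CDK4 knockdown and 16.4% of CDK6 after CDK6 knockdown, so the depth of knockdown was not equal. The kinase not targeted differed from the controls as well: CDK6 in CDK4 knockdown by 0.35 on the log2 scale (adjusted p = 0.00461, and 0.0599 against NT3 alone), and CDK4 in CDK6 knockdown by -0.39 (adjusted p = 1.92e-05).

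The other genes of the D cyclin, inhibitor, RB and E2F network split by role. Among D cyclins, CCND2 had normalised counts of 2712, 2876 and 2762 in CDK4 knockdown and 5471, 5119 and 4912 in CDK6 knockdown, 1.86-fold higher after CDK6 knockdown without overlap (log2 difference 0.89, SE 0.06, adjusted p = 3.04e-10). CCND3 rose by less (log2 difference 0.31, SE 0.062, adjusted p = 0.000524). CCND1, the D cyclin gene best known in fibroblasts, had 47509.6, 45723 and 49482 in CDK4 knockdown and 54413, 54505 and 57146 in CDK6 knockdown, a log2 difference of 0.22 that missed the threshold in the fit of all 7 groups (adjusted p = 0.0775) and passed it when the 6 libraries were fitted alone (adjusted p = 0.00224).

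Most inhibitor genes of the INK4 family were lower after CDK6 knockdown. CDKN2B, which encodes p15, had 516, 426 and 492 in CDK4 knockdown and 163, 134 and 157 in CDK6 knockdown (log2 difference -1.65, SE 0.10, adjusted p = 3.79e-11). CDKN2A, the p16 and ARF gene, had 187, 211 and 174 in CDK4 knockdown and 86.2, 96.7 and 111.8 in CDK6 knockdown (log2 difference -0.95, SE 0.12, adjusted p = 1.58e-06), and CDKN2C, which encodes p18, had 116, 84.4 and 94.7 in CDK4 knockdown and 34.5, 54.96 and 31.7 in CDK6 knockdown (log2 difference -1.29, SE 0.19, adjusted p = 1.38e-05). No CDK6 knockdown library reached a CDK4 knockdown library for any of these 3 genes. CDKN2D, which encodes p19, did not pass (-0.35, adjusted p = 0.121). An antisense RNA gene runs through CDKN2B, and whether counting used strand is not given in the sources used here, so its reads cannot be told apart. Of the CIP and KIP inhibitors, CDKN1A, which encodes p21, was slightly higher after CDK6 knockdown at 24042, 23532 and 24235 against 20633, 20978 and 21009 (log2 difference 0.20, adjusted p = 0.00344). That call was lost under quantile normalization, where the difference was 0.054 (adjusted p = 0.491). CDKN1B did not pass (-0.09, adjusted p = 0.585).

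Downstream of the kinases, the activating factor E2F1 had 252, 208 and 214 in CDK4 knockdown and 92.9, 107.9 and 82.9 in CDK6 knockdown, 2.37-fold lower after CDK6 knockdown (log2 difference -1.24, SE 0.11, adjusted p = 2.77e-08). E2F2 was at 17, 23 and 17 reads after CDK4 knockdown and at 1, 2 and 2 reads after CDK6 knockdown, and E2F8 at 14, 16 and 13 against 3, 2 and 4 reads, so these differences are uncertain in size, and E2F8 was not called with a pseudocount of 0.1 (adjusted p = 0.067). CDC25A, a phosphatase that activates CDK2, had a log2 difference of -1.16 (adjusted p = 2.76e-07), and CCNE1, the cyclin E1 gene, of -0.47 (adjusted p = 0.00868, and 0.0576 without CDK4 knockdown library 2). E2F4 was higher by 0.16, with an adjusted p of 0.0445 that rose above the threshold when any of the 6 libraries was left out (0.0545 to 0.133). RB1, RBL1 and RBL2, the retinoblastoma family genes, gave -0.09, -0.32 and 0.13, none of them past the threshold. E2F3 and E2F6 gave 0.17 and -0.09 (adjusted p = 0.117 and 0.581). In all, 5 of the 23 tested members of the network were higher and 9 lower, the 2 targets included. These are 21.7% and 39.1%, against 18.2% and 17.8% of all tested genes. CDKN1C, the p57 gene, was below the filter, and E2F7 was not analysed here.

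CDK2, the kinase that takes over from CDK4 and CDK6 at the entry to S phase, was not called between the 2 knockdowns. Its normalised counts were 497, 502 and 513 in CDK4 knockdown and 482, 497 and 475 in CDK6 knockdown, and the log2 difference was -0.06 (adjusted p = 0.601). Against the non-targeting controls, with 896 to 1199, CDK2 fell in each: by 1.04 on the log2 scale in CDK4 knockdown, by 1.10 in CDK6 knockdown and by 1.89 in the knockdown of both kinases.

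**Figure D2:**
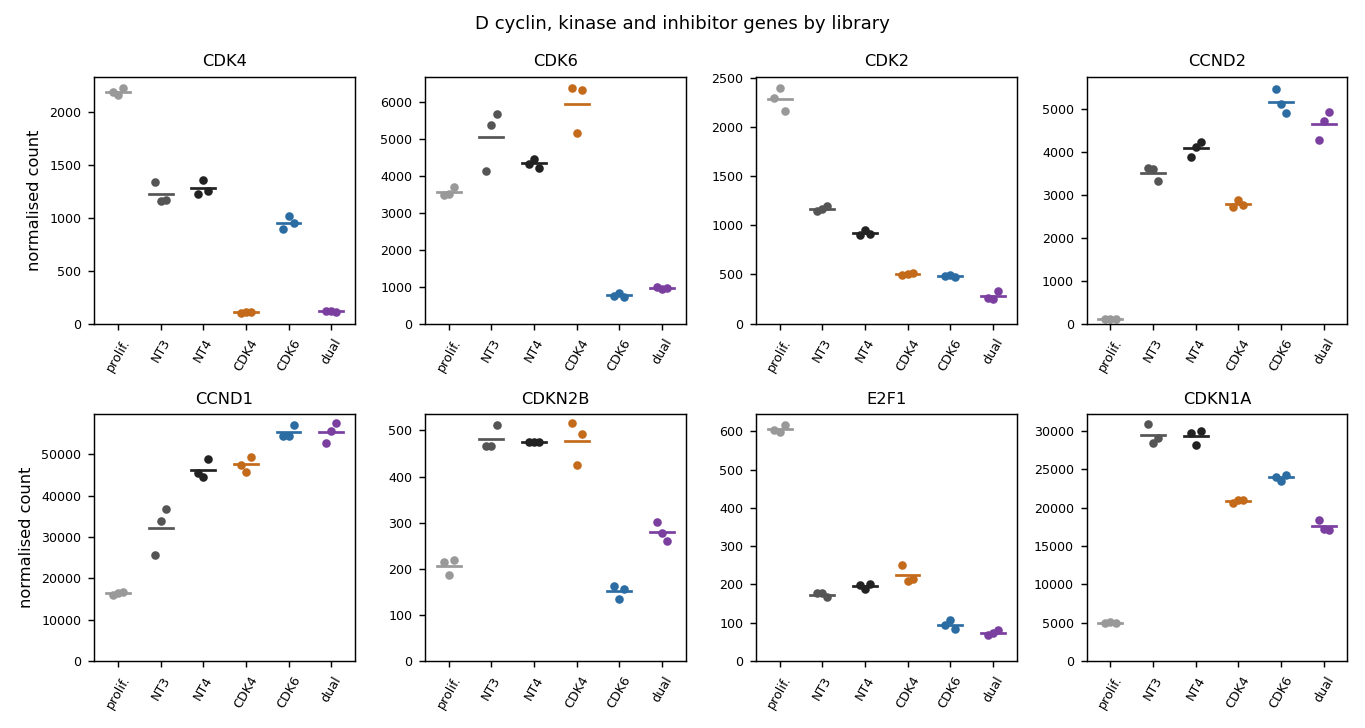
Normalised counts (vertical axes, each starting at 0) of 8 genes of the D cyclin network in every library of 6 groups, with the group mean as a bar; prolif. is the proliferating group, NT3 and NT4 the non-targeting controls, CDK4, CDK6 and dual the knockdowns. CDKN2B after CDK6 knockdown, at 163, 134 and 157, lies below the other irradiated groups shown, while CDK2 lies between 475 and 513 in both single knockdowns.

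The 12 largest rises and 12 largest falls were taken among called genes whose libraries did not overlap and whose mean in the higher group was over 492, the median of the tested genes, so they exclude genes of low counts. IRAG1, a target of cyclic GMP-dependent protein kinase that restrains calcium release, had 549, 582 and 635 in CDK4 knockdown and 3363, 3557 and 3397 in CDK6 knockdown (log2 difference 2.55, SE 0.12, adjusted p = 1.89e-12). CEMIP, a protein that breaks down hyaluronan, had 1982, 2540 and 2476 in CDK4 knockdown and 11224, 11835 and 10106 in CDK6 knockdown, and ANO1, a calcium-activated chloride channel, had 238, 279 and 275 in CDK4 knockdown and 1135, 1215 and 1163 in CDK6 knockdown. No library of one group reached the other for any of the 3, as the choice of these genes required. CEMIP was 4.74-fold and ANO1 4.44-fold higher after CDK6 knockdown. CORIN, the protease that activates atrial natriuretic peptide, was 4.33-fold higher (adjusted p = 8.77e-10). LMOD1, an actin nucleator of smooth muscle, was 4.20-fold higher (log2 difference 2.08, SE 0.10, adjusted p = 1.1e-12). The synaptic vesicle glycoprotein gene SV2A, the heparan sulfatase gene SULF1 and LBH, a developmental transcription cofactor, had log2 differences of 1.92, 1.89 and 1.67. The remaining genes among the 12 largest rises were MXRA8, a matrix remodelling receptor (1.65), VSIR, which encodes the immune checkpoint VISTA (1.63), and the adhesion molecule gene MCAM (1.63). Their adjusted p-values were 3.17e-09 or lower.

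Beside CDK6 itself, the largest falls were led by inflammatory and interferon genes. CXCL8, the neutrophil chemokine interleukin 8, had 2721, 3744 and 3506 in CDK4 knockdown and 238, 323 and 667 in CDK6 knockdown, 8.12-fold lower (log2 difference -3.15, SE 0.30, adjusted p = 5.97e-08). TNFAIP3, which encodes the NF-kB inhibitor A20, had 953, 1139 and 1192 in CDK4 knockdown and 172, 198 and 289.8 in CDK6 knockdown (log2 difference -2.34, SE 0.22, adjusted p = 4.34e-08). SERPINB2, an inhibitor of urokinase, had 1227, 1292 and 1408 in CDK4 knockdown and 281, 279 and 388 in CDK6 knockdown (log2 difference -2.06, SE 0.11, adjusted p = 1.44e-11). In each case the lowest CDK4 knockdown library was above the highest CDK6 knockdown library, as the choice of these genes required. C3, the central complement component, had 1473, 1887 and 1795 in CDK4 knockdown and 262, 343 and 836 in CDK6 knockdown, with the third CDK6 knockdown library well above the other CDK6 knockdown libraries (log2 difference -2.02, SE 0.37, adjusted p = 0.000217). The small GTPase gene GEM (-2.05), the lipoprotein lipase inhibitor gene ANGPTL4 (-2.00), the amino acid transporter gene SLC6A15 (-1.96) and the Wnt receptor gene FZD8 (-1.81) fell as well. OAS3 (-2.08) and OAS2 (-1.96), which sense double-stranded RNA, and BIRC3 (-1.80), an inhibitor of apoptosis induced by NF-kB, completed the 12. The OAS2 call was lost with a pseudocount of 0.1 (adjusted p = 0.0548).

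**Figure D3:**
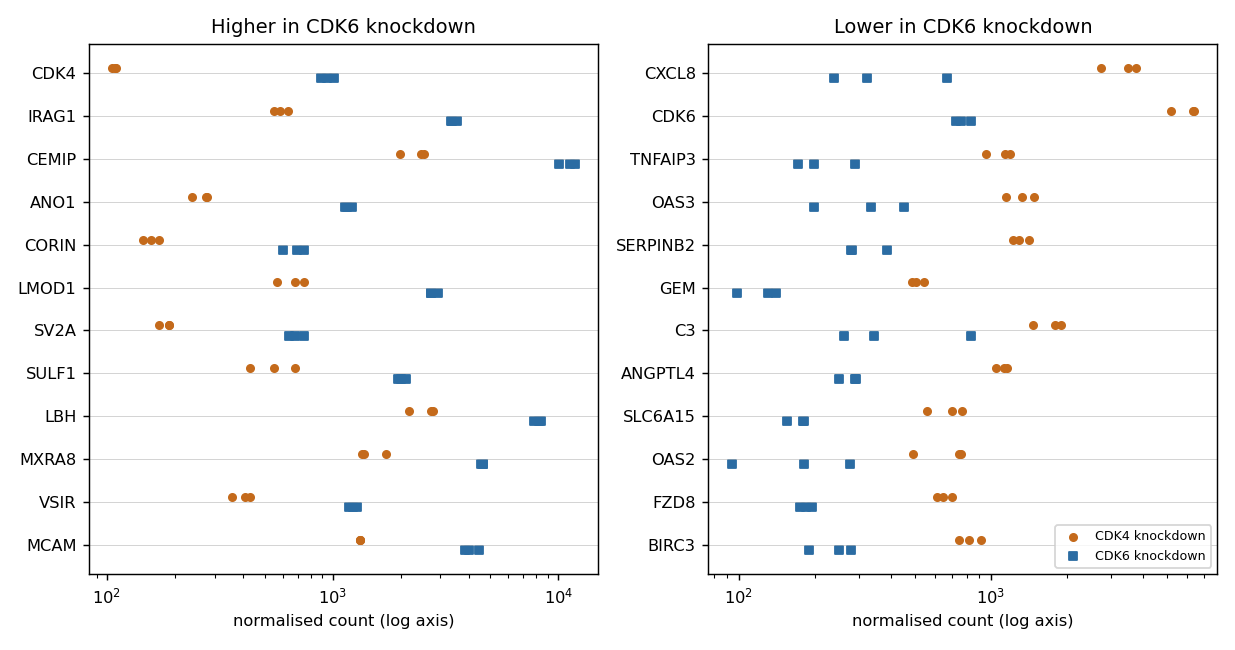
Normalised counts (horizontal log axes) in each CDK4 knockdown library (circles) and each CDK6 knockdown library (squares) for the 12 largest rises and 12 largest falls. The 2 groups are separated for every gene, as the choice of these genes required. For the falls, CXCL8, C3 and OAS2 show the widest spread among the CDK6 knockdown libraries.

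A difference between 2 knockdowns can come from either, so the same genes were set beside the 6 control libraries, which both values share. Each of the 11 falls other than CDK6 was called lower than the controls in CDK6 knockdown, as were 21.3% of all tested genes. In CDK4 knockdown only ANGPTL4 and SLC6A15 passed the threshold, both higher, as were 8.83% of all tested genes. The rises and falls were chosen by these same CDK4 and CDK6 knockdown libraries, so such counts are not independent support. Against NT3 alone SERPINB2 in CDK4 knockdown was called lower (-0.31, adjusted p = 0.0499). CXCL8 differed from controls by -3.15 in CDK6 knockdown (adjusted p = 5.83e-09), whereas the CDK4 knockdown libraries lay inside the control range of 1601 to 6662. TNFAIP3 gave -2.17 in CDK6 knockdown and 0.17 in CDK4 knockdown (adjusted p = 1.19e-08 and 0.605), and GEM gave -1.99 and 0.07. ANGPTL4 differed in opposite directions, by -1.42 in CDK6 knockdown and 0.58 in CDK4 knockdown, although the second call was lost against NT3 alone (adjusted p = 0.321). In SLC6A15 the values were -1.52 and 0.44, and the CDK4 knockdown value became -0.049 against NT4 alone.

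Several of the rises combined a rise in one knockdown with a fall in the other. CEMIP differed from the controls by 1.33 in CDK6 knockdown and -0.92 in CDK4 knockdown, LBH by 0.78 and -0.89, MCAM by 0.88 and -0.75, and SULF1 by 1.27 and -0.62, all past the threshold. MXRA8 gave 0.40 in CDK6 knockdown and -1.25 in CDK4 knockdown, and SV2A 0.65 and -1.27, also all past it. LMOD1 and VSIR were at 1.92 and 1.58 in CDK6 knockdown, with -0.16 and -0.05 in CDK4 knockdown (adjusted p = 0.21 and 0.75), although LMOD1 in CDK4 knockdown was called lower against NT4 alone (-0.37, adjusted p = 0.0116). IRAG1 gave 1.90 and -0.64, and ANO1 1.59 and -0.56, but the falls in CDK4 knockdown were lost against NT3 alone (adjusted p = 0.269 and 0.0531). With both kinases depleted, IRAG1 was at 0.99, CEMIP at 0.56 and MXRA8 at -0.67 from the controls, and each of these values lay between those of the single knockdowns.

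**Figure D4:**
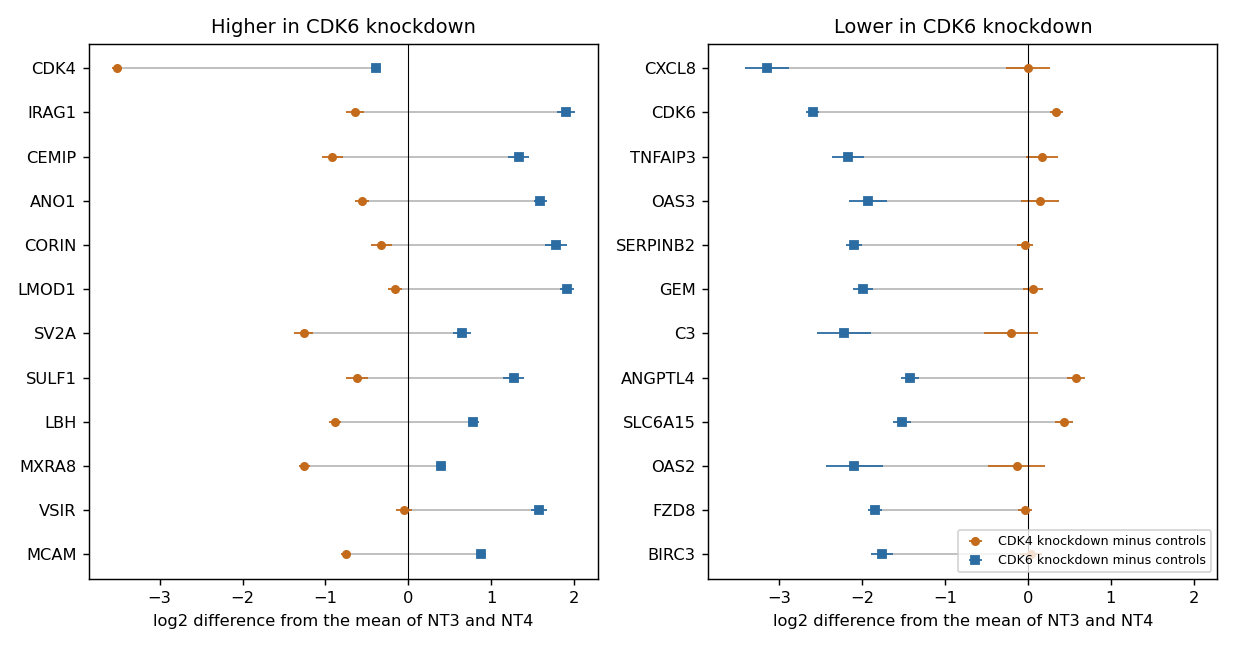
Log2 difference from the mean of the NT3 and NT4 libraries (horizontal axes) in CDK4 knockdown (circles) and CDK6 knockdown (squares) for the 12 largest rises and 12 largest falls, with bars of 1 standard error from limma and grey lines joining the values of a gene. Squares of the falls lie left of 0, and the circles of the falls lie between -0.20 (C3) and 0.58 (ANGPTL4), while CEMIP, LBH, MCAM and SULF1 have a circle and a square on opposite sides of 0.

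Genes of the cell cycle machinery were lower after CDK6 than after CDK4 knockdown nearly throughout. Of 40 DNA replication genes 34 fell and 1 rose, with a median log2 difference of -0.76 against -0.0074 over all genes tested. RRM2, the regulated subunit of ribonucleotide reductase, had 1693, 1471 and 1564 in CDK4 knockdown and 556, 541 and 390.4 in CDK6 knockdown (log2 difference -1.68, SE 0.12, adjusted p = 4.76e-10). The origin licensing factor CDC6 had 209, 175 and 211 in CDK4 knockdown and 91.01, 80.4 and 73.6 in CDK6 knockdown (log2 difference -1.27, SE 0.13, adjusted p = 9.78e-08), and CLSPN, a replication checkpoint mediator, had a log2 difference of -1.43 (adjusted p = 8.56e-08). The libraries did not overlap for these genes. The exception was UNG, a uracil glycosylase of base excision repair, at 288, 279.7 and 313 in CDK4 knockdown and 376, 340 and 349 in CDK6 knockdown (0.27, adjusted p = 0.00752). The polymerase genes POLD1 and POLE did not pass, at -0.28 and -0.12. The E2F motif TTTNNCGC, searched on both strands, was present in 22 of 37 promoters of these genes in the RefSeq set (59.5%) and in 6.90% of all 27305 promoters of the same 300 bases.

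Of the mitosis genes 41 of 43 were lower by limma and 0 higher (also 0 at an unadjusted p under 0.05, by edgeR and by DESeq2), with a median of -1.17. NCAPG, a subunit of the condensin complex that compacts chromosomes, had 349, 300.3 and 308 in CDK4 knockdown and 116, 132 and 78.3 in CDK6 knockdown (log2 difference -1.57, SE 0.16, adjusted p = 1.32e-07). UBE2C, the ubiquitin-conjugating enzyme of the anaphase-promoting complex, had 191, 168 and 178 in CDK4 knockdown and 65.1, 67.2 and 44.7 in CDK6 knockdown (log2 difference -1.60, SE 0.21, adjusted p = 2.64e-06), and NDC80, which ties kinetochores to microtubules, had 199, 219 and 189 in CDK4 knockdown and 68.98, 72.3 and 62.4 in CDK6 knockdown (log2 difference -1.56, SE 0.21, adjusted p = 5.69e-06). All groups were apart, and the lowest value of NCAPG, UBE2C and NDC80 was in the third CDK6 knockdown library. MKI67, the proliferation marker Ki-67, stood at 1076, 869.6 and 1018 in CDK4 knockdown and 469, 419 and 355 in CDK6 knockdown. AURKA and SMC2 did not pass, at -0.15 and -0.15. Against the controls, where 21.9% of tested genes were higher and 21.3% lower in CDK6 knockdown and 8.83% and 7.83% in CDK4 knockdown, the list moved in opposite directions: 41 members fell in CDK6 knockdown (median -0.82) and 21 rose in CDK4 knockdown (median 0.35). For the DNA replication genes 37 fell in CDK6 knockdown while 2 rose and 2 fell in CDK4 knockdown. List counts and medians against the controls, here and below, use the mean of NT3 and NT4. They were not taken against either control alone, so how far they depend on the control was not tested. In bulk RNA, fewer cells expressing these genes and less RNA per cell cannot be told apart.

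The NCAPG promoter carries the cell cycle homology region (CHR, TTTGAA), an element of genes that peak in G2 and mitosis, and is shown because NCAPG was among the largest falls of the list. Capitals mark the CHR match, at bases -35 to -30 from the RefSeq start, and the sequence is from RefSeq on GRCh38.p14.
NCAPG promoter, chr4:17810829-17810978, forward strand: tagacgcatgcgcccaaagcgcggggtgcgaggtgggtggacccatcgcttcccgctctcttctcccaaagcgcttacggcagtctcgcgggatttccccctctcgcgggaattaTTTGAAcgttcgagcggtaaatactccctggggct
A match to TTTGAA on either strand was found in 26 of 36 promoters of the tested mitosis genes (72.2%) and in 15.4% of all 27305 promoters, and a CCAAT box in 25 of 36 (69.4%) and 35.7%. UBE2C and CDC25C, which fell more than NCAPG, were not among the genes with a TTTGAA match, having no match or no promoter in the set. These matches describe the letters only.

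Among nuclear proteins tied to the cell cycle and to senescence, LMNB1, the lamin B1 gene whose loss marks senescent cells, had 176, 202 and 176 in CDK4 knockdown and 75.7, 65.1 and 54.04 in CDK6 knockdown (log2 difference -1.50, SE 0.18, adjusted p = 8.17e-07). LMNB2 and TMPO, which encodes the lamina-associated polypeptide LAP2, were lower as well (-0.56 and -0.62), and SUN1, a linker of nucleus and cytoskeleton, was higher (0.54, adjusted p = 2.28e-06). HMGA2, an architectural protein of fetal and senescent chromatin, had 16725, 14051 and 15335 in CDK4 knockdown and 5209.7, 5264 and 5057 in CDK6 knockdown, 2.97-fold lower without overlap (log2 difference -1.57, SE 0.064, adjusted p = 2.36e-13). It moved in opposite directions from the controls, by 0.65 in CDK4 knockdown and -0.92 in CDK6 knockdown. Of the 8 HMG genes 4 were lower, 2 without CDK4 knockdown library 2, and of the 11 lamina genes 6 were lower and 1 higher. The lower shares were 50% and 54.5%, against 17.8% of all tested genes. The higher share of the lamina genes was 9.09%, against 18.2%. HMGB2 was lower at -1.25 (adjusted p = 5.67e-07), whereas HMGA1 did not pass (-0.10, adjusted p = 0.237) except under quantile normalization (adjusted p = 0.0109).

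Secreted cytokines and chemokines formed the list with the largest median difference. Of 22 tested members 21 were lower after CDK6 knockdown by limma and 0 higher (also 0 at an unadjusted p under 0.05, by edgeR and by DESeq2), and the median was -2.07. IL1B, the interleukin 1 beta gene, had 313, 382 and 385 in CDK4 knockdown and 31.6, 28.5 and 53.1 in CDK6 knockdown (log2 difference -3.27, SE 0.27, adjusted p = 4.62e-09). IL6 stood at 657, 973 and 973 in CDK4 knockdown and 209.8, 268 and 347 in CDK6 knockdown. IL1A stood at 151, 162 and 152 in CDK4 knockdown and 15.3, 19.3 and 20.5 in CDK6 knockdown. The groups were far apart for all 3. CSF2, which encodes the growth factor GM-CSF, had 50.7, 73.6 and 62.5 in CDK4 knockdown and 6.71, 2.04 and 14.9 in CDK6 knockdown (log2 difference -3.12, SE 0.50, adjusted p = 3.93e-05). CCL20, a chemokine for lymphocytes and dendritic cells, was at 74, 93 and 74 reads in CDK4 knockdown and 1, 8 and 10 reads in CDK6 knockdown (log2 difference -3.80, SE 0.48, adjusted p = 1.91e-06). CCL2, the monocyte chemokine, was the member that did not pass, at 1082, 1352 and 1352 in CDK4 knockdown and 1164, 1448 and 1689 in CDK6 knockdown (0.17, adjusted p = 0.457). Of the leukocyte markers, CD68 was lower in the same direction, at 1588, 1476 and 1503 in CDK4 knockdown and 1039, 1100.3 and 1101 in CDK6 knockdown (-0.49, adjusted p = 3.68e-06), CD14 was at 14.2, 13.7 and 18.9 in CDK4 knockdown and 11.5, 27.5 and 15.8 in CDK6 knockdown (adjusted p = 0.803), and PTPRC, CD3E and AIF1 were at or near 0. The part of such cells in the result was not tested. Against the controls 21 members fell in CDK6 knockdown, while 3 rose and 1 fell in CDK4 knockdown. CXCL1, CXCL2 and CXCL3 are near-identical in sequence, and how reads shared between them were counted is not given in the sources used here.

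Of NF-kB subunits, inhibitors and adhesion or survival targets, 16 of 25 were lower and 3 higher, with a median of -0.54. ICAM1, a leukocyte adhesion molecule, had 4229, 4555 and 4759 in CDK4 knockdown and 1620, 1878 and 2242 in CDK6 knockdown (log2 difference -1.25, SE 0.12, adjusted p = 5.68e-08), and TNFAIP2 had a log2 difference of -1.19 (adjusted p = 5.63e-08). RELA, which encodes the p65 subunit, had 1879.7, 1952 and 1937 in CDK4 knockdown and 1723, 1759 and 1774 in CDK6 knockdown (-0.13, adjusted p = 0.075), and the kinase gene IKBKB gave 0.07. RELA passed when the 6 libraries were fitted alone (adjusted p = 0.0347), under quantile normalization and by DESeq2. VCAM1, an adhesion molecule like ICAM1, was higher by 0.53 (adjusted p = 0.037), a call that was lost when CDK4 knockdown library 1 or 3, or CDK6 knockdown library 2 or 3, was left out (adjusted p 0.0513 to 0.281). In the AP-1 family 7 of 10 were lower, among them the stress factor gene ATF3 (-1.06, adjusted p = 4.58e-06), FOSL1 (-0.86, adjusted p = 4.34e-08) and JUNB (-0.86, adjusted p = 0.00013), while FOSL2 was at 1745, 1699 and 1986 in CDK4 knockdown and 1717, 1626 and 2049.9 in CDK6 knockdown (-0.01, adjusted p = 0.94).

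CXCL8 and TNFAIP3 had the largest falls among the cytokine and the NF-kB genes of the 12 falls, and their promoters show the kappaB motif GGNNTTTCC that NF-kB binds. Capitals mark its matches on either strand, at bases -91 to -83 for CXCL8, and at -67 to -59 and -55 to -47 on the opposite strand for TNFAIP3. Both sequences are the 150 bases before the RefSeq start on GRCh38.p14.
CXCL8 promoter, chr4:73740419-73740568, forward strand: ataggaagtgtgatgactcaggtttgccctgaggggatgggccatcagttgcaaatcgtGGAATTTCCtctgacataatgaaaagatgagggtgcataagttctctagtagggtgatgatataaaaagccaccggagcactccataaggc
TNFAIP3 promoter, chr6:137867109-137867258, forward strand: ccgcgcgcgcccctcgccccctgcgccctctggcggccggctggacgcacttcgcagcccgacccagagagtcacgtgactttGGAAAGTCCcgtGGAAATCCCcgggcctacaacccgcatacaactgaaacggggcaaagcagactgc
The motif was present in 11 of 18 promoters of the tested cytokine genes (61.1%), in 10 of 22 of the NF-kB genes (45.5%) and in 6.26% of all promoters. Whether a factor was bound at any of them was not measured.

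Interferon-stimulated genes, the antiviral programme switched on by interferon receptors, were lower after CDK6 knockdown in 34 of 37 tested members and higher in 1, with a median of -1.08. RSAD2, the antiviral enzyme viperin, had 172, 261 and 225 in CDK4 knockdown and 38.3, 38.7 and 49.4 in CDK6 knockdown (log2 difference -2.34, SE 0.30, adjusted p = 2.18e-06). IFI44L had 365, 527 and 542 in CDK4 knockdown and 162, 54.96 and 143 in CDK6 knockdown (log2 difference -2.11, SE 0.31, adjusted p = 1.79e-05), and OAS3 had 1142, 1331 and 1485 in CDK4 knockdown and 333, 198 and 451 in CDK6 knockdown. These groups did not overlap, but the spread within the CDK6 knockdown libraries was wide, with library 2 lowest for IFI44L and OAS3. ISG15, a ubiquitin-like modifier, stood at 2677, 3758 and 3372 in CDK4 knockdown and 1238, 919 and 1620 in CDK6 knockdown. TRIM22 was the member called higher, at 1712, 1763 and 1807 in CDK4 knockdown and 2078, 2084 and 2046 in CDK6 knockdown (log2 difference 0.23, SE 0.062, adjusted p = 0.0051). Against the controls the list had a median of -0.06 in CDK4 knockdown and of -1.15 in CDK6 knockdown, where 35 members fell and 2 rose.

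The IFI44L promoter is shown for the interferon-stimulated response element (ISRE, a repeat of GAAA with 2 free bases between), which the STAT and IRF factors of this pathway bind. Capitals mark the match at bases -73 to -64 in the 150 bases before the RefSeq start, and a second match lies further up at -164 to -155.
IFI44L promoter, chr1:78620298-78620447, forward strand: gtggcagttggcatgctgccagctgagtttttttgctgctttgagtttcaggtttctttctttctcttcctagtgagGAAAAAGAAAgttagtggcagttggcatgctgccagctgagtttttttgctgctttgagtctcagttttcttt
The ISRE was found in 20 of 30 promoters of the tested interferon-stimulated genes (66.7%) and in 3.65% of all promoters. RSAD2 and CMPK2, which fell more than IFI44L, were not among these genes, having no match or no promoter in the set.

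Of the 15 MHC class I pathway genes 7 were tested, 3 were listed at 0 in all 6 libraries, and 1 was lower, ERAP2, a peptidase that trims antigen peptides (-0.54, adjusted p = 3.15e-05). How reads of this gene-dense and polymorphic region were counted is not given in the sources used here, so its zeros and the HLA-B values are uncertain. HLA-B had 1220, 1552 and 1339 in CDK4 knockdown and 1207, 1485 and 1289 in CDK6 knockdown (-0.04, adjusted p = 0.838), and B2M, the class I light chain, differed by -0.10. Both were lower than the controls in each knockdown, HLA-B at -0.68 and -0.72 in CDK4 and CDK6 knockdown, but against NT4 alone neither was called in CDK4 knockdown (adjusted p = 0.0533 and 0.0752). In complement, C3 and CD55, a membrane inhibitor of complement (-0.55, adjusted p = 2.12e-05), were lower and C7, a part of the membrane attack complex, was higher (0.71, adjusted p = 0.000129) among 10 tested, with 2 higher without CDK4 knockdown library 1. The called shares were 10% higher and 20% lower in complement, and 14.3% lower in MHC class I. Over all tested genes they were 18.2% higher and 17.8% lower.

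The third CDK6 knockdown library stood apart within its group in these programmes, a pattern looked for after the principal components were seen. It had the highest value of the 3 CDK6 knockdown libraries for 19 of 22 cytokine genes, 18 of 25 NF-kB genes and 27 of 37 interferon-stimulated genes, against 35.8% of all tested genes, and the lowest value for 38 of 43 mitosis genes, against 34.3%. Without it the cytokine median was -2.42, the NF-kB median -0.67, the interferon-stimulated median -1.30 and the mitosis median -1.05, with 21, 17, 34 and 41 members called lower. The DNA replication and AP-1 medians became -0.74 and -0.70. CXCL8 without it differed by -3.57 (adjusted p = 7.2e-09) and C3 by -2.51 (adjusted p = 1.54e-05).

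Targets of p53, the other arm of the senescence arrest, were lower in 16 of 27 and higher in 4, with a median of -0.38. The called shares were 59.3% lower and 14.8% higher, against 17.8% and 18.2% of all tested genes. GDF15, a stress hormone of the TGF-beta superfamily, had 5501, 5796 and 5793 in CDK4 knockdown and 1595, 1611 and 2049.9 in CDK6 knockdown, 3.25-fold lower without overlap (log2 difference -1.71, SE 0.11, adjusted p = 1.69e-10). TNFRSF10B, the death receptor DR5, had 7007, 6808 and 6929.7 in CDK4 knockdown and 3813, 3993 and 4077 in CDK6 knockdown (log2 difference -0.80, SE 0.058, adjusted p = 8.48e-10). The antiproliferative gene BTG2 and BBC3, which encodes the killer protein PUMA, were lower at -0.70 and -0.62. Among those higher were CDKN1A, above, and ZMAT3, an RNA-binding p53 effector (0.36, adjusted p = 0.00826, and 0.0586 without CDK4 knockdown library 2). TNFRSF10D, a decoy receptor, was at 6476, 5695 and 5575 in CDK4 knockdown and 5785, 6147 and 5098 in CDK6 knockdown and did not separate the groups (-0.06, adjusted p = 0.621).

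Growth factors and proteases of the senescent secretome were mixed. Ligands of the EGF receptor were lower: AREG had 388, 376 and 392 in CDK4 knockdown and 85.3, 78.4 and 130.4 in CDK6 knockdown (log2 difference -2.00, SE 0.15, adjusted p = 2.2e-09), EREG had 747, 661 and 804 in CDK4 knockdown and 246, 225 and 307 in CDK6 knockdown (log2 difference -1.51, SE 0.15, adjusted p = 7.23e-08) and HBEGF differed by -1.27 (adjusted p = 1.23e-07). AREG and EREG also rose above the controls in CDK4 knockdown, by 0.59 and 0.76, and fell below them in CDK6 knockdown, at -1.41 and -0.75. The AREG rise was lost against NT3 alone (0.41, adjusted p = 0.0549). The receptor gene ERBB2 was higher (0.50, adjusted p = 4.11e-07), and EGFR did not pass (-0.34, adjusted p = 0.275, and 0.00282 with the 6 libraries fitted alone). In the EGF list 4 of 7 were lower and 2 higher (57.1% and 28.6%). Plasminogen system genes were lower in 6 of 11 and higher in 1 (54.5% and 9.09%, with 2 higher without CDK6 knockdown library 3). Over all tested genes 17.8% were lower and 18.2% higher. PLAU, which encodes the urokinase plasminogen activator, had 45393, 43660.3 and 45668 in CDK4 knockdown and 13995, 14902 and 18279.8 in CDK6 knockdown (log2 difference -1.52, SE 0.10, adjusted p = 1.05e-10). Its receptor gene PLAUR was lower at -0.66, and PLAT, the tissue-type activator, was higher by 0.37.

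Of 13 matrix metalloproteinase and inhibitor genes 4 were lower and 1 higher. These are 30.8% and 7.69%, against 17.8% and 18.2% of all tested genes. The lower call of MMP15 was lost without any 1 CDK4 knockdown library or CDK6 knockdown library 1 or 2 (adjusted p 0.0541 to 0.148). The collagenase gene MMP1 had 6654, 5952 and 6014 in CDK4 knockdown and 3109, 3049 and 3921 in CDK6 knockdown (log2 difference -0.89, SE 0.087, adjusted p = 6.25e-08), and the stromelysin gene MMP3 and the membrane protease gene MMP14 were lower at -0.88 and -0.49. Their inhibitor TIMP2 was higher, at 18546, 17745 and 18075 in CDK4 knockdown and 28522, 28729 and 27020 in CDK6 knockdown (log2 difference 0.63, SE 0.047, adjusted p = 1.34e-09), while TIMP1 and TIMP3 did not pass (0.18 and -0.10). For prostaglandins, PTGS2, the inducible cyclooxygenase, had 923, 1022 and 1088 in CDK4 knockdown and 341, 398 and 450.1 in CDK6 knockdown (log2 difference -1.35, SE 0.17, adjusted p = 2.24e-06), and the prostacyclin synthase gene PTGIS was higher (log2 difference 1.09, SE 0.25, adjusted p = 0.00147). Of 11 tested genes of this list 3 were higher and 4 lower, 27.3% and 36.4% against 18.2% and 17.8% of all tested genes. The higher call of PTGER1 was lost without CDK4 knockdown library 1 or CDK6 knockdown library 1 or 3 (adjusted p 0.0735 to 0.124). The lower call of PTGER4 was lost without CDK4 knockdown library 2 or 3 or CDK6 knockdown library 1 (adjusted p 0.055 to 0.062).

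The contractile apparatus was the list with most members higher after CDK6 knockdown: 17 of 22 rose, 1 fell and the median was 0.47. ACTA2, the smooth muscle actin that marks myofibroblasts, had 2146, 2384 and 2441 in CDK4 knockdown and 6494, 6857 and 6204 in CDK6 knockdown (log2 difference 1.49, SE 0.073, adjusted p = 2.33e-12). ACTG2, enteric smooth muscle actin, had 3367, 3695 and 3491 in CDK4 knockdown and 7561, 7929.9 and 7262 in CDK6 knockdown (log2 difference 1.11, SE 0.093, adjusted p = 7.82e-09), and CNN1, calponin, had 1162, 1225 and 1210.3 in CDK4 knockdown and 2778, 2995 and 3122 in CDK6 knockdown (log2 difference 1.30, SE 0.076, adjusted p = 3.43e-11). Every CDK6 knockdown library was above every CDK4 knockdown library for these 3 genes. ACTA2 and ACTG2 are near-identical in coding sequence, so reads could be split between them. TAGLN, which encodes transgelin, was higher by 0.81 (adjusted p = 4.6e-08). SMTN, smoothelin, was the member that fell (-0.22, adjusted p = 0.00581). MYOCD, which encodes the smooth muscle coactivator myocardin, was at 285, 253 and 315 in CDK4 knockdown and 266, 321 and 271 in CDK6 knockdown (0.01, adjusted p = 0.969), and the smooth muscle myosin gene MYH11 was between 0 and 1.92 in the 6 libraries. From the controls, 18 members rose in CDK6 knockdown, and 2 rose and 2 fell in CDK4 knockdown, ACTA2 by 1.03 and -0.45. Summed smooth muscle and pericyte markers, of which 3 of 6 tested were higher, ranged from 4794 to 4991 in CDK4 knockdown and from 7389 to 7543 in CDK6 knockdown, and CNN1 is in both lists.

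The ACTG2 promoter shows the CArG box, the serum response factor element of contractile genes, in capitals at bases -110 to -101 and -73 to -64 from the RefSeq start on GRCh38.p14.
ACTG2 promoter, chr2:73892858-73893007, forward strand: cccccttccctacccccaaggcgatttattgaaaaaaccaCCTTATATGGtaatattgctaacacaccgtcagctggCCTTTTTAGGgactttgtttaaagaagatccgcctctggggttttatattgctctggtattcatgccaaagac
A CArG box was found in 5 of 18 promoters of the tested contractile genes (27.8%) and in 1.28% of all promoters. The 5 were ACTG2, CNN2, MYLK, TPM4 and FLNA. LMOD1, ACTA2 and CNN1, which rose more than ACTG2, were not among them, having no match or no promoter in the set.

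Cyclic GMP signalling, which relaxes smooth muscle, had 7 of 12 tested members higher and 1 lower, with a median of 0.38. Beside IRAG1 and CORIN, PDE5A, the phosphodiesterase that degrades cyclic GMP, had 13423, 12249.6 and 13785 in CDK4 knockdown and 19146, 19320.3 and 17860.5 in CDK6 knockdown (log2 difference 0.51, SE 0.10, adjusted p = 0.000377), and NPR3, the natriuretic peptide clearance receptor, had 169, 139 and 161 in CDK4 knockdown and 262, 221 and 225 in CDK6 knockdown (log2 difference 0.59, SE 0.15, adjusted p = 0.00452). The kinase gene PRKG1, which acts on IRAG1, did not pass (0.14, adjusted p = 0.518), nor did the receptor gene NPR2 in the fit of all groups (0.20, adjusted p = 0.0579, and 0.00544 with the 6 libraries alone). IRAG1 and CORIN were chosen among the largest rises, so their place in this list adds no evidence.

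In the extracellular matrix the type I collagen genes were not called. COL1A1 differed by -0.18 (adjusted p = 0.154, and 0.0267 with the 6 libraries alone) and COL1A2 by -0.03 (adjusted p = 0.795). The COL1A1 libraries did not overlap, which held for 52.8% of all tested genes. COL3A1, of more compliant fibres, was higher at 17777, 21269 and 20448 in CDK4 knockdown and 27464, 30369 and 28085 in CDK6 knockdown (log2 difference 0.53, SE 0.10, adjusted p = 0.000301), as was the basement membrane collagen gene COL15A1 (log2 difference 1.10, SE 0.14, adjusted p = 3.26e-06). In all 7 of 22 collagen genes were higher and 1, COL5A3 (-0.76), lower. These are 31.8% and 4.55%, against 18.2% and 17.8% of all tested genes. The lower count was 2 without CDK6 knockdown library 2 and by edgeR and DESeq2, 4 under quantile normalization and 6 with the 6 libraries alone. COL12A1 lost its call under quantile normalization (adjusted p = 0.0984), and COL14A1 lost it without CDK4 knockdown library 1 or CDK6 knockdown library 2 or 3 (adjusted p 0.0578 to 0.149).

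Of 26 elastic fibre, proteoglycan and matricellular genes 12 were higher and 3 lower. DCN, the small proteoglycan decorin, had 12573, 14550.2 and 13317 in CDK4 knockdown and 24182, 25739 and 21154 in CDK6 knockdown (log2 difference 0.81, SE 0.10, adjusted p = 1.04e-06), and BGN, biglycan, differed by 0.86. ELN, the elastin gene, had 117, 192 and 179 in CDK4 knockdown and 302, 386 and 215 in CDK6 knockdown (log2 difference 0.88, SE 0.20, adjusted p = 0.00138), with the third CDK6 knockdown library the lowest of its group. POSTN, periostin, went the other way, at 3223, 2879 and 2848 in CDK4 knockdown and 916, 1012 and 898 in CDK6 knockdown, 3.17-fold lower (log2 difference -1.66, SE 0.078, adjusted p = 1.53e-12). From the controls POSTN moved by 0.67 in CDK4 knockdown and -0.99 in CDK6 knockdown. FN1, fibronectin, was lower too (-0.57, adjusted p = 0.000978). Of 11 hyaluronan genes 2 were higher and 2 lower, 18.2% each and close to the 18.2% and 17.8% of all tested genes. CEMIP, already among the largest rises, and HYAL2, a hyaluronidase (0.44), were higher, the inflammatory hyaluronan-binding gene TNFAIP6 (-1.75) and CEMIP2 (-0.48) were lower, and the receptor gene CD44 was at 84299, 82174 and 86291 in CDK4 knockdown and 80639, 83777 and 86366 in CDK6 knockdown (-0.01, adjusted p = 0.899).

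Growth factor axes that act on fibroblasts showed smaller and divided differences. In the IGF axis IGFBP5, a secreted binding protein of senescent fibroblasts, had 79342, 85650.1 and 91194 in CDK4 knockdown and 178891, 186112 and 180227 in CDK6 knockdown (log2 difference 1.09, SE 0.10, adjusted p = 5.68e-08). IGFBP2 and IGFBP3 were higher by 1.09 and 0.62, and 7 of 15 members were higher against 3 lower. The called shares were 46.7% higher and 20% lower, the latter near the 17.8% of all tested genes. Over all tested genes 18.2% were higher. The IGF2 call (-0.76, adjusted p = 0.0221) was lost without CDK4 knockdown library 1 (adjusted p = 0.0937) or CDK6 knockdown library 2 (adjusted p = 0.125). In the TGF-beta, activin and BMP list 11 of 30 were higher and 5 lower, the latter 3 without CDK4 knockdown library 3. Its called shares were 36.7% higher and 16.7% lower, against 18.2% and 17.8%, so the lower share was near that of all tested genes. The activin A subunit gene INHBA had 1967, 1994 and 2216 in CDK4 knockdown and 819, 861 and 1078 in CDK6 knockdown (log2 difference -1.17, SE 0.12, adjusted p = 9.58e-08), its antagonist FST was lower at -0.61, and the BMP antagonist NOG was higher by 0.60. TGFB1 did not pass (0.17, adjusted p = 0.0656). CCN2, the connective tissue growth factor, had 8606, 11292 and 10794 in CDK4 knockdown and 19010, 20389 and 19807 in CDK6 knockdown (log2 difference 0.96, SE 0.10, adjusted p = 1.33e-07), while its relative CCN1 had 8368, 10256 and 9254 in CDK4 knockdown and 9355, 10145 and 9422 in CDK6 knockdown (0.06, adjusted p = 0.568). These are both targets of YAP and TEAD, a list with 4 of 16 members higher and 5 lower, YAP1 itself among the latter (-0.49, adjusted p = 0.000222). The shares were 25% and 31.2%, against 18.2% and 17.8% of all tested genes.

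Lipid, lysosome and amino acid genes were lower in part, and ribosomal and oxidative phosphorylation genes were seldom called. Lysosome genes had 6 of 20 lower and 2 higher, against 17.8% and 18.2% of all tested genes. The higher count was 0 under quantile normalization, 1 without CDK4 knockdown library 1 or CDK6 knockdown library 1 or 2, and 4 without CDK4 knockdown library 2. The largest fall was in the cholesterol exporter gene NPC1, at 3313, 2678 and 3033 in CDK4 knockdown and 1522, 1442 and 1788 in CDK6 knockdown (log2 difference -0.93, SE 0.12, adjusted p = 3.15e-06). Sterol and fatty acid synthesis had 10 of 22 lower by limma and 0 higher (1 at an unadjusted p under 0.05, 0 by edgeR and DESeq2), with a median of -0.18. INSIG1, the sterol sensor partner that holds back SREBP, had 732, 680.2 and 791 in CDK4 knockdown and 379, 303 and 365 in CDK6 knockdown (log2 difference -1.07, SE 0.089, adjusted p = 5.67e-09), and HMGCS1 and SCD were lower at -0.53 and -0.55. Of ATF4 and amino acid genes 8 of 21 were lower and 3 higher, with the stress factor gene DDIT3 at -0.87, the amino acid transporter subunit gene SLC3A2 at -0.84 and ATF5 at 0.59. Ribosomal protein genes had 1 of 73 lower, the RPL39L paralog (-0.87), and 0 higher by limma (2 at an unadjusted p under 0.05, 1 by edgeR, 0 by DESeq2, and 1 without CDK6 knockdown library 2 or 3). Oxidative phosphorylation genes had 4 of 73 higher, COX6C foremost (0.68, adjusted p = 0.000505), and 1 lower, which was not called without CDK4 knockdown library 2 or 3 or CDK6 knockdown library 1. With the 6 libraries alone 7 ribosomal genes were higher and 7 lower, and 8 oxidative phosphorylation genes higher and 5 lower.

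**Figure D5:**
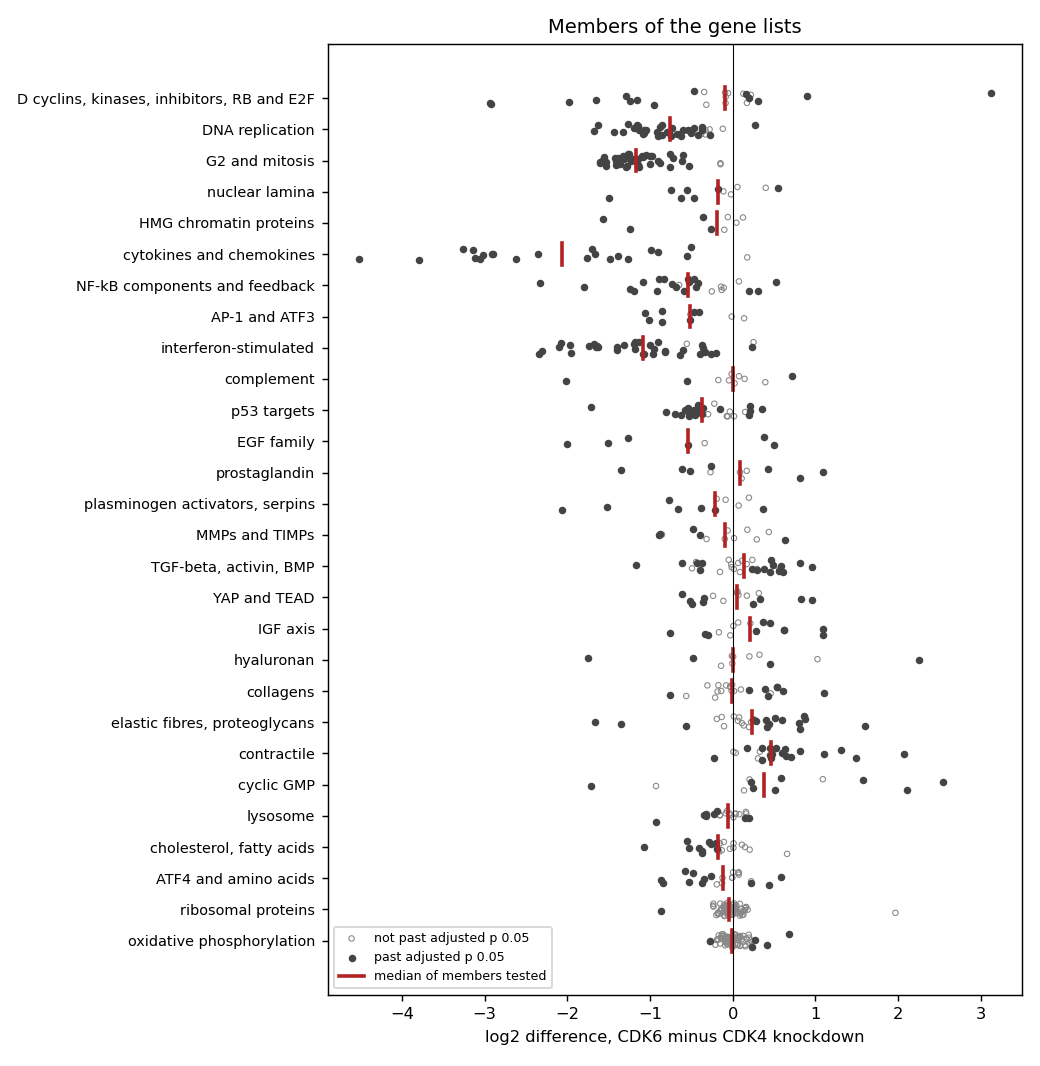
Log2 difference between CDK6 and CDK4 knockdown (horizontal axis) for every tested member of 28 gene lists (rows; the MHC class I list is not drawn), filled where limma's adjusted p was under 0.05, with the list median as a red bar. The cytokine median lies at -2.07, the mitosis median at -1.17 and the contractile median at 0.47, while ribosomal and oxidative phosphorylation genes cluster around 0.

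Genes in a list share libraries and are not independent replicates, so the counts and medians describe these lists in these 6 libraries. Normalised counts are not per length, and levels are compared here within a gene, across libraries.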

How the data were processed

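Poly(A) RNA of IMR90 fibroblasts was sequenced. The deposited table holds 1 signal value per gene and library, which the authors made by scaling read counts with one size factor per library, as the file headers and the steps between the values show. The submitters' processing notes name Trimmomatic 0.38.1, HISAT2 2.2.1, featureCounts 2.0.3, FastQC 0.74, MultiQC, DESeq2 2.11.40.8 and the builds hg38 and GRCh38, with no role or settings. How strand and multiply mapped reads were handled is not given in the sources used here.

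Columns were matched to groups by the target in their names. They carry no replicate number of the labels, so library numbers here are names only. All low values were whole multiples of the value of 1 read (100% of values, within 0.1 read), and whole reads were recovered from them. Depth over the 21 libraries ran from 12892442 to 21822152 reads in the listed genes.

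The main test was limma 3.58.1 in R 4.3.3 with its trend option, on log2(value + 1). It fitted all 7 groups together, which share one estimate of the spread, and tested the contrast of CDK6 against CDK4 knockdown. P-values were adjusted by Benjamini and Hochberg over the 11167 tested genes, with a threshold of 0.05. Log2 differences are on the log2(value + 1) scale, which understates changes of low genes. Contrasts of each knockdown against the mean of NT3 and NT4 came from the same fit and share the controls. All adjusted p-values are from limma unless another tool is named. The fit was tested on simulated data.

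Genes were named by a rule: the targets and all members of the D cyclin network, the 12 largest rises and falls, and from each list up to 4 called members in its main direction, 2 in the other and 2 not called, with a mean of at least 50 for called members. MKI67, IL6, IL1A, ISG15 and TAGLN fall outside it and were chosen after their values were seen. There were 29 lists of results and 5 of cell type markers. The comparison, members and lists were chosen with earlier results of these data known. Promoters are RefSeq windows on GRCh38.p14 from 250 bases before to 50 after a start, and 9114 of the tested genes had one. Motif shares over all promoters include genes that were not tested. Shares over the 9114 alone were not taken, so a difference between tested and untested genes may enter the motif comparisons. The alternatives were other pseudocounts, filters, scalings, control groups, sets of libraries, leaving out each library, and counts tested with edgeR 4.0.16 and DESeq2 1.42.0. The CCND1 knockdown libraries entered the fit and are otherwise not analysed here. A few genes of the lists are not reported here by name.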

Additional observations from a re-analysis of the deposited data

How the results depend on the processing

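Of 11167 tested genes 4021 were called, and with all 6 libraries the count ran from 3602 (only genes with a mean of 100) to 4879 (the 6 libraries fitted alone), with 4116 by edgeR and 4200 by DESeq2. Leaving out 1 library gave 3305 to 3564 calls, of which 1693 to 1806 were higher and 1612 to 1785 lower. Past 1 on the log2 scale it gave 491 to 536 genes (166 to 191 higher, 317 to 359 lower), and 3.07 to 3.17 for CDK4 and -3.04 to -2.89 for CDK6. With the filter on a mean of 100, 265 genes passed that size, 99 higher and 166 lower, since fewer low genes were tested, and the cytokine median was -1.39 with 12 members lower. The prostaglandin median turned to -0.27 under this filter. The YAP and TEAD median turned to -0.0086 under quantile normalization and to -0.0074 without CDK4 knockdown library 2, and was 0.064 without CDK6 knockdown library 3; the cause was not tested. Against NT4 alone RBL2 in CDK6 knockdown turned to -0.037 and SLC6A15 in CDK4 knockdown to -0.049. Numbers in the column headers run in 3 consecutive series, each with 1 library of every irradiated group. A fit of the 18 irradiated libraries with these series as a replicate block, added after the data were seen, called 3881 genes, against 3836 without the block. Deviations of CDK4 and CDK6 knockdown libraries of the same series correlated by 0.054, 0.026 and 0.088. The CDK4 knockdown libraries correlated less with CDK6 knockdown libraries of other series, at most 0.051, 0.0078 and -0.018. The CDK6 knockdown library of the second series correlated more with another series (0.051). With 3 libraries per group, values this small cannot decide whether the numbers pair the libraries. The block with the labels' replicate numbers was not run, because the columns carry none. For CDK6 against CDK4 knockdown, values of the named genes were compared under the alternatives. Of these values 3933 kept their side of the threshold, 67 lost and 41 gained a call. None of them that was called in either fit changed direction, and changes of direction between uncalled values were not counted. Values against the controls were counted apart: with a single control 5 lost a call, 8 gained one and 2 turned, those of RBL2 and SLC6A15 above. Genes under about 20 reads in a group, such as E2F2, E2F8 and CCL20, are limited by counting error.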
